A study of Homo sapiens with 8 samples.

Results

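The 73 H/ACA small nucleolar RNA (snoRNA) genes described here are the SNORA genes that could be counted in RNA of BEAS-2B cells. They were chosen by name and count. A member has a GENCODE symbol made of SNORA and a number, and its expected count, summed over its transcripts and rounded, reached 5 in at least 2 of the 8 libraries. GENCODE 44 (GRCh38) lists 214 SNORA genes, of which the deposited tables hold 213. Of these, 94 were at 0 in every library, 46 had counts without reaching the limit, and the 73 members made up a small part of the 21298 genes that passed the same limit. The limit was close for a few genes. SNORA15, SNORA20, SNORA40B, SNORA44, SNORA51 and SNORA62 reached it in exactly 2 libraries, while SNORA2B, SNORA63D, SNORA65 and SNORA75 reached it in 1 and were left out. All 73 members reached the limit in 2 or more input libraries. Only 31 reached it in 2 or more pull-down libraries, so that 42 members were included through the fraction in which their counts were higher.

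BEAS-2B is an immortalised human bronchial epithelial cell line. Cultures were held at the air-liquid interface and received humidified clean air (CA) or 1 ppm formaldehyde (FA) over 2 h, and both groups then recovered for 6 h. Ribosomal RNA was depleted from all samples, and each RNA pool was split into an input fraction (CA_IN, FA_IN) and a fraction immunoprecipitated with an antibody against 8-oxo-7,8-dihydroguanine (8-oxoG), an oxidised form of guanine (CA_IP, FA_IP). Each of the 4 groups holds 2 biological replicates of this single cell line, and the sample records give 2 different names for the antibody clone.

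H/ACA snoRNAs are short nuclear RNAs that pair with a target RNA and direct the conversion of chosen uridines to pseudouridine, mostly in ribosomal RNA. Each folds into hairpins separated by a hinge that carries the H box, and ends in a tail with the ACA box. Dyskerin (DKC1), the pseudouridine synthase, together with NOP10, NHP2 and GAR1 forms the protein core of the particle. In human cells most H/ACA snoRNAs are cut out of the introns of host genes, many of which encode ribosomal proteins or serve mainly as snoRNA hosts.

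The members were short and alike in size. Their annotated length ran from 122 to 249 nt with a median of 134 nt, and 66 of the 73 were between 122 and 153 nt long. The other 7, all above 170 nt, were SNORA23, SNORA53, SNORA73A, SNORA73B, SNORA74A, SNORA74B and SNORA81. SNORA59B and SNORA71B are each listed with 2 transcripts whose counts were summed. Their length here is that of the transcript with more counts (152 and 134 nt), and weighting both transcripts by their counts gives 377 and 174 nt. A reference sequence was matched for 71 members. An ACA placed 3 bases before the 3′ end was found in 53 of these 71, against 1.59% of 314 SNORD and 0.736% of 1901 small nuclear RNA (snRNA) transcripts in the same annotation. The H box letters ANANNA, searched on the RNA strand between 35 and 65% of the length, were found in 68 of the 71. These looser letters also occurred in 53.5% of SNORD and 75.8% of snRNA transcripts. Guanine made up 26.2% of the bases of the median member, with a range from 17.2 to 33.8%.

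The sequences below come from GENCODE 44 (GRCh38) and are written as DNA, 5′ to 3′. They belong to the pair with most counts and to an abundant member of typical length. Others belong to members with low pull-down to input ratios and to a pair of near-identical copies. Capitals mark the ANANNA match nearest the middle and an ACA placed exactly 3 bases before the 3′ end. SNORA63 has an ACA 1 base before its 3′ end, which is left in small letters.
SNORA73A: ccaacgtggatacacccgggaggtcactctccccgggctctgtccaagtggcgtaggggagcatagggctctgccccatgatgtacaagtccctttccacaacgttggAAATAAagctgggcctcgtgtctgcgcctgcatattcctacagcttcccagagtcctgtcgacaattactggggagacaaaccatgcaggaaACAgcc
SNORA73B: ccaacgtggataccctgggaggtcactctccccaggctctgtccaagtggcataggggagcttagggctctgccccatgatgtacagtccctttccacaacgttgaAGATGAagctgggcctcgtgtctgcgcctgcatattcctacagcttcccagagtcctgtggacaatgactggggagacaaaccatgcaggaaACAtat
SNORA48: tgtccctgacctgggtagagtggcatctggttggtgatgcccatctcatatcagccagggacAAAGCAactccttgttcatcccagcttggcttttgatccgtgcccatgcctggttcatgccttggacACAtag
SNORA63: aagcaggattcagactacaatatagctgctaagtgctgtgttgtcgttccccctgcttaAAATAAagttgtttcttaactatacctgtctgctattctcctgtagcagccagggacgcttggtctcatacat
SNORA23: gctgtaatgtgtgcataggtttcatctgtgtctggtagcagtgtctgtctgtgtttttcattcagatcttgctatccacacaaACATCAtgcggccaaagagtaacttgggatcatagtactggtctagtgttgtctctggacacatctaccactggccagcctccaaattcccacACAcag
SNORA50C: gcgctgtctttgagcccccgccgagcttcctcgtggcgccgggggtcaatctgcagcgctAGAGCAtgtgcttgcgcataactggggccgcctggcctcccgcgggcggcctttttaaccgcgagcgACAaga
SNORA7A: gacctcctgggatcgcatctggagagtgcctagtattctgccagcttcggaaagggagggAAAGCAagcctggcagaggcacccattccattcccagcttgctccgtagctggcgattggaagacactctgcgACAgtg
SNORA7B: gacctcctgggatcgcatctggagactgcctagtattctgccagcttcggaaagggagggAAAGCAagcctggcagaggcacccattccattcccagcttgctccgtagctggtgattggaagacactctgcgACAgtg

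SNORA73A (chr1:28507366-28507571, plus strand) and SNORA73B (chr1:28508559-28508762, plus strand) lie within SNHG3, a long non-coding host gene. SNORA48 (chr17:7574713-7574847, plus strand) lies within EIF4A1 and SNORA63 (chr3:186787300-186787431, plus strand) within EIF4A2, both genes of translation initiation factors. SNORA23 (chr11:9428773-9428954, plus strand) is inside the importin gene IPO7. SNORA50C (chr17:64146339-64146471, plus strand) is inside SNHG25. SNORA7A (chr3:12840312-12840450, minus strand) is in the ribosomal protein gene RPL32, and SNORA7B (chr3:129397210-129397348, minus strand) is in an unnamed long non-coding gene. SNORA7A and SNORA7B differ at 2 of 139 positions, so reads could be divided between them by RSEM and their separate values are uncertain.

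Every member had a host, defined as a protein-coding or long non-coding gene on the same strand whose span holds the whole snoRNA. More than 1 gene met this definition for 7 members (SNORA26, SNORA48, SNORA67, SNORA73A, SNORA73B, SNORA74A and SNORA74D), and the one with most counts was then taken. The hosts so chosen were 53 genes, protein-coding for 55 members and long non-coding for 18, and 14 of them held 2 or more members. Ribosomal protein genes held 13 members. For 42 members an annotated exon of some isoform of the chosen host overlapped the snoRNA, while 31 were intronic in every isoform. In the former 42, reads of such a host isoform that fall on the shared bases cannot be told apart from reads of the snoRNA.

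The libraries held between 26.2 M and 45.1 M expected counts in input and between 16.9 M and 23.7 M after pull-down. Members took 0.0616 to 0.0846% of the counts of an input library and 0.0116 to 0.0152% of the counts of a pull-down library. All 7 genes listed for the bronchial epithelial line (KRT5, KRT8, KRT17, KRT18, KRT19, EGFR and VIM) were well counted, though not all are particular to epithelium. Of 8 markers of other cells only PECAM1, COL1A2, PDGFRB and FOXJ1 passed the count limit. KRT8 was called higher in CA_IP than in CA_IN (log2FC 0.41), and no other marker was called in any comparison. These are bulk RNA samples, in which fewer cells of a type and less RNA per cell cannot be told apart. RSEM's effective length, the number of places a fragment of the observed sizes can start, was very small for these RNAs. For the 135-nt SNORA48 it was 1.05 to 1.69 nt in the input libraries, 1.53 and 2.01 nt in CA_IP, and 0 and 2.03 nt in FA_IP replicates 1 and 2. The mean fragment ran from 209 to 233 nt, the longest being that of FA_IP replicate 1.

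Levels of the members in input spanned a wide range. Levels are compared between genes as CPM, which are counts scaled to a common library size with TMM factors, per 100 nt of annotated length, averaged over the 4 input libraries. SNORA73A, known as U17 or E1 and needed for early cleavages of the ribosomal RNA precursor, stood highest at 189 ± 27.2 CPM per 100 nt (SD, n = 4). Its sister SNORA73B followed at 82.2 ± 10.7 CPM per 100 nt (SD, n = 4), with no overlap between the 4 input values of the 2 genes. The median member stood at 0.699 CPM per 100 nt, which makes the top member 271 times the median on this scale. The ratio depends on the scale, because annotated length takes no account of the very small effective lengths. By the deposited TPM, which uses effective length, SNORA73A had a mean of 6093 over the input libraries and SNORA70 one of 6664. SNORA73A and SNORA73B together took 68.5 to 78.0% of the members' counts in each library, and the 10 members with most counts took 88.5% of the input counts.

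The members next in order lay close together. SNORA70 stood at 19.4 ± 3.73, SNORA48 at 16.5 ± 3.49 and SNORA63 at 13.9 ± 3.23 CPM per 100 nt (SD, n = 4 for each), and each differed from its neighbour by less than their SDs over the libraries. Within each of the 4 input libraries, however, the order was the same, with SNORA70 above SNORA48 and SNORA48 above SNORA63. SNORA74A, a copy of U19, at 11.5 ± 1.44 and SNORA57 at 11.1 ± 1.80 CPM per 100 nt (SD, n = 4) changed places between libraries, with SNORA57 the higher in CA_IN replicate 1 and SNORA74A in the others. SNORA7A at 6.84 ± 1.60, SNORA71A at 6.42 ± 1.56, SNORA71D at 6.42 ± 1.2 and SNORA23 at 6.25 ± 0.836 CPM per 100 nt (SD, n = 4) were the next, again within their SDs. By the deposited TPM, which divides by the effective length, 9 of the same 10 genes led, with SNORA70 first and SNORA73A second, and SNORA74A stood at place 20. The TPM was 0 in all input libraries for 6 members that did have counts, and these were among the shortest.

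**Figure D1:**
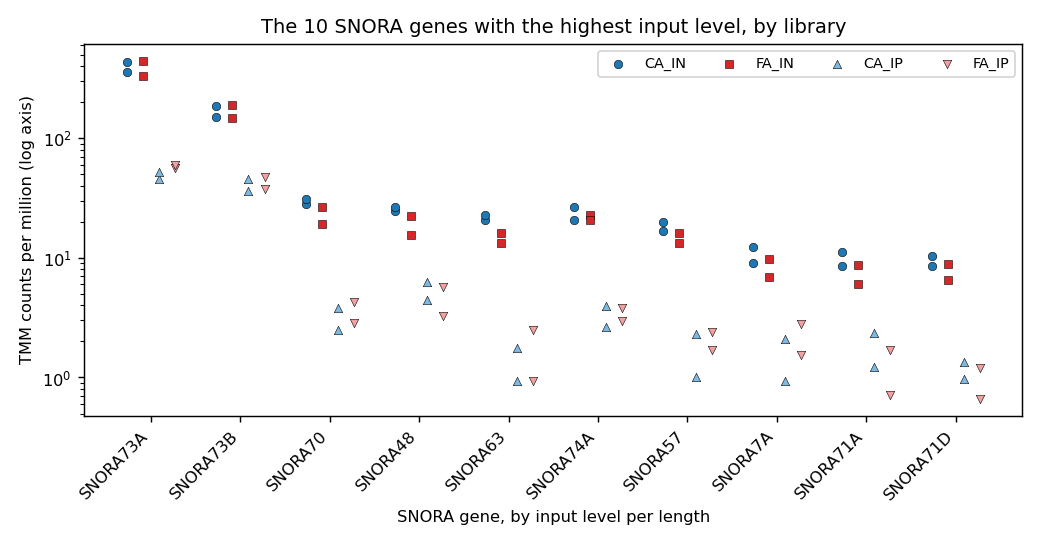
TMM CPM (log axis) of the 10 SNORA genes with the highest input level per length, with 1 point per library and 2 libraries in each of CA_IN, FA_IN, CA_IP and FA_IP. In all 10 genes both pull-down points of a treatment lie below both input points, and the input points of the treatments lie close together or overlap.

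The first comparison asked how the members in 8-oxoG pull-down RNA stood against input in clean air. SNORA genes were lower in the pull-down. Of the 73 members, 38 were called lower in CA_IP than in CA_IN and 0 higher (edgeR quasi-likelihood test, Benjamini-Hochberg adjusted p under 0.05 over all 21298 genes), where 1.48% of all genes were called lower. The median log2FC of the members was -2.92, a 7.55-fold lower level, beside a median of 0.01 over all genes tested. In all 73 members both CA_IP values lay below both CA_IN values, which was so for 18.2% of all genes. Since 42 members had passed the count limit through input alone, the 31 that passed it in the pull-down libraries are given as well: 26 were called lower, all 31 were below 0, and their median log2FC was -2.71. An unadjusted p under 0.05 was reached by 65 members.

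SNORA73A had 354 and 431 CPM in CA_IN and 46.0 and 52.7 CPM in CA_IP. Its log2FC was -2.99 (SE 0.16, edgeR adjusted p = 3.16e-05), and the groups did not overlap. SNORA73B, with 151 and 185 CPM in CA_IN and 36.2 and 45.3 CPM in CA_IP, had a log2FC of -2.04 (SE 0.18, edgeR adjusted p = 0.00031). SNORA73B was among the 6 members with the highest mean ratios of those with a mean input count of at least 20. SNORA63, also known as E3, was at the other end of the same order. It had 20.9 and 22.8 CPM in CA_IN and 0.932 and 1.78 CPM in CA_IP, a log2FC of -4.02 (SE 0.38, edgeR adjusted p = 0.000508). SNORA62, known as E2, was close to the count limit with 7.1 and 5.0 counts in CA_IN and 0.6 and 0.1 counts in CA_IP, and it was not called (edgeR adjusted p = 0.497). SNORA63 and SNORA62 share their symbols with other annotated genes.

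The U19 genes SNORA74A and SNORA74B were both called. SNORA74A had 20.8 and 26.8 CPM in CA_IN and 2.63 and 3.94 CPM in CA_IP (log2FC -2.86, SE 0.23, edgeR adjusted p = 0.000241). SNORA74B was present at a much lower level, with 63 and 49 counts in CA_IN and 2 and 3 counts in CA_IP (log2FC -3.58, SE 0.52, edgeR adjusted p = 0.00745). SNORA74D, which shares the host MATR3 with SNORA74A, had 2.69 and 3.39 CPM in CA_IN and 0.169 and 0.192 CPM in CA_IP, a log2FC of -4.04 (SE 0.44, edgeR adjusted p = 0.00118). SNORA70 had 28.4 and 30.8 CPM in CA_IN and 2.50 and 3.80 CPM in CA_IP, and SNORA57 had 16.7 and 19.9 CPM in CA_IN and 1.02 and 2.31 CPM in CA_IP, with log2FC of -3.24 (SE 0.26) and -3.47 (SE 0.32), both called.

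SNORA7A and SNORA7B, the near-identical copies printed above, were both called as well. SNORA7A had 9.10 and 12.3 CPM in CA_IN and 0.932 and 2.12 CPM in CA_IP, a log2FC of -2.82 (SE 0.39). SNORA7B had 3.05 and 3.44 CPM in CA_IN and 0.424 and 1.2 CPM in CA_IP, a log2FC of -2.02 (SE 0.39). The values of the 2 genes after pull-down overlapped.

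Among members with a mean input count of at least 20, the clean air log2FC ran from -5.07 to -1.58. The lowest was SNORA10 in the RPS2 gene, which held 1 count in total over both CA_IP libraries. From the summed counts its level was 39.9-fold lower, with a 95% counting interval from 6.94 to 1597. SNORA9 within SNHG15 also had 1 count in CA_IP, and SNORA50C had 2, for a level 23.3-fold lower with an interval from 6.24 to 195. SNORA26, the shortest member at 122 nt, had 28 and 34 counts in CA_IN and 2 and 0 counts in CA_IP, a level 17.2-fold lower with an interval from 4.56 to 145. Such intervals hold the error of counting alone, because PCR copies were not marked by molecular identifiers. The highest ratio was that of SNORA12, with 31 and 14 counts in CA_IN and 2 and 6 counts in CA_IP (log2FC -1.58, not called). SNORA67, SNORA49 and SNORA59B were also near the upper end, with log2FC of -1.65 (SE 0.40), -1.81 (SE 0.44) and -1.81 (SE 0.36), of which the value of SNORA59B was called. In 8 members both CA_IP libraries were at 0, so that only a bound can be given. Computed against 3 counts over the group, SNORA6 was at least 7.57-fold lower and SNORA31 at least 5.73-fold lower. With such members at their bound the median log2FC over the 73 was -2.71.

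The second comparison set FA_IP against FA_IN. It gave 27 members lower and 0 higher, where 1.27% of all genes were called lower, and 60 members had an unadjusted p under 0.05. The median log2FC was -2.46, a 5.50-fold lower level, beside 0.00 over all genes. In 70 of the 73 members both FA_IP values lay below both FA_IN values, against 19.1% of all genes. The exceptions were SNORA20, SNORA37 and SNORA51. SNORA20 and SNORA51 had at most 4 counts in any of the formaldehyde libraries, and SNORA37 had 1 and 9 counts in FA_IN and 0 and 3 counts in FA_IP. Among the 31 members that passed the count limit in pull-down libraries, 22 were called lower, all 31 were below 0 and the median log2FC was -2.29. With RNA pool as a block, so that each pull-down was set against the input of its own pool, 50 members were called lower. The share of all genes called lower in that fit is not given, and the 1.27% above is not its background.

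SNORA73A had 443 and 330 CPM in FA_IN and 56.1 and 59.3 CPM in FA_IP (log2FC -2.74, SE 0.16, edgeR adjusted p = 7.06e-05). SNORA73B had 189 and 147 CPM in FA_IN and 37.7 and 47.0 CPM in FA_IP (log2FC -1.98, SE 0.18, edgeR adjusted p = 0.000529). In both treatments the log2FC of SNORA73B was nearer to 0 than that of SNORA73A, a difference that was not tested. SNORA23 had 12.8 and 10.1 CPM in FA_IN and 0.939 and 1.36 CPM in FA_IP, a log2FC of -3.29 (SE 0.26, edgeR adjusted p = 0.000277), after -3.67 (SE 0.27) in clean air. SNORA63 had 16.3 and 13.4 CPM in FA_IN and 0.939 and 2.51 CPM in FA_IP, a log2FC of -3.05 (SE 0.37, edgeR adjusted p = 0.00282). The values of SNORA63 in the pull-down spread more between replicates than those of SNORA73A, while its groups still did not overlap.

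SNORA61 in SNHG12 had the lowest formaldehyde ratio among the well-counted members. Its counts were 47.2 and 38.1 in FA_IN and 1.7 and 0.0 in FA_IP, so that the level from summed rounded counts was 30.7-fold lower with a 95% counting interval from 8.24 to 258. In clean air SNORA61 had 62.1 and 67.2 counts in input and 7.1 and 4.6 counts after pull-down, 5.96-fold lower with an interval from 3.29 to 11.8. Both FA_IP libraries were at 0 for 7 members, among them SNORA6, at least 5.30-fold lower, and SNORA81, at least 7.71-fold lower. With these at their bound the median log2FC in formaldehyde was -2.29.

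**Figure D2:**
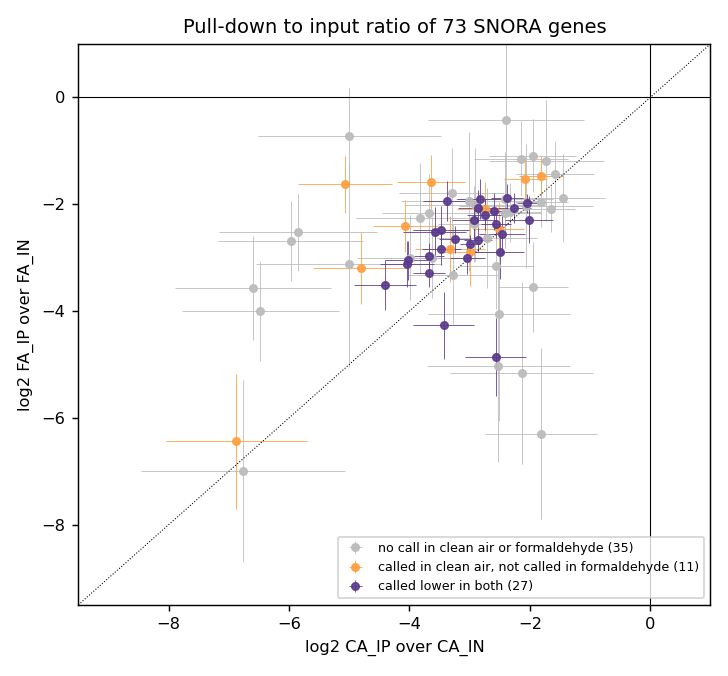
log2 ratio of pull-down to input for each of the 73 SNORA genes in clean air (x axis) and formaldehyde (y axis), with bars for the standard error and a dotted line where both are equal. All points lie below 0 in both treatments, 27 genes were called lower in both and 11 were called in clean air but not in formaldehyde, a difference that was not called for any gene.

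The 27 members called in formaldehyde were all among the 38 called in clean air. They include the 10 members with the highest input level per annotated length, from SNORA73A to SNORA71D. The members not called had lower counts as a group, without a clean division. The median of the mean input count was 95.4 for the members called in clean air and 13.3 for the others, and 153 against 16.4 in formaldehyde. SNORA49 and SNORA67, with mean input counts of 67.0 and 61.4, were called in neither treatment, whereas SNORA6 was called in clean air with a mean input count of 15.7. Across the 47 members with a mean input count of at least 20, the clean air and formaldehyde ratios had a Spearman rho of 0.53, and the clean air ratio had a rho of 0.20 with length, 0.07 with input level per length and, over the 45 of them with a sequence, 0.07 with the share of guanine. In formaldehyde these were 0.28, 0.09 and 0.15. All such points come from the same libraries and are given as a description.

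The symbols of 8 members are carried by more than 1 gene in the annotation, and reads could be divided among such copies. They are SNORA16A, SNORA50A, SNORA62, SNORA63, SNORA70, SNORA72 and the pair named SNORA17B. Of the other 65 members, 34 were called lower in clean air and 24 in formaldehyde. The call counts rested in part on single libraries. Without CA_IP replicate 1, 20 members were called in clean air. In formaldehyde, 12 were called without FA_IN replicate 1 and 15 without FA_IP replicate 1.

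SNHG17 holds 4 members, SNORA71A, SNORA71B, SNORA71C and SNORA71D, which made it possible to compare snoRNAs within 1 host gene. SNORA71A had 8.54 and 11.1 CPM in CA_IN and 1.23 and 2.36 CPM in CA_IP. SNORA71D had 8.59 and 10.4 CPM in CA_IN and 0.974 and 1.35 CPM in CA_IP. Their levels in input were thus alike, whereas SNORA71C stood lower, at 0.709 ± 0.203 CPM per 100 nt (SD, n = 4). All 4 were called lower in both treatments, with log2FC of -2.47, -2.56, -2.50 and -3.04 for SNORA71A to SNORA71D in clean air and of -2.55, -2.36, -2.90 and -3.0 in formaldehyde. SNORA71C and SNORA71D share 86.6% of 134 positions. SNHG17 itself had a log2FC of 0.19 in clean air and -0.06 in formaldehyde and was not called.

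Most host genes were not called. Of 51 hosts tested, 5 were called lower and 0 higher in each treatment, and the median log2FC of the hosts was -0.06 in both. SNHG3, which holds SNORA73A and SNORA73B, had a log2FC of -0.15 in clean air and -0.17 in formaldehyde. EIF4A1, which holds SNORA48 and SNORA67, had 0.25 and 0.21. Those called lower included RPL21, RPL30, RPL32 and SNHG25, with clean air log2FC from -1.77 to -1.05. In each treatment all 71 members with a tested host had a lower log2FC than the host. The median difference was -2.72 in clean air and -2.30 in formaldehyde. Of the 73 members, 42 had passed the count limit through input alone, a choice that favours low ratios. The 31 that passed it in pull-down libraries had a median log2FC of -2.71 in clean air and -2.29 in formaldehyde.

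Other short RNAs were also low in the pull-down. C/D box snoRNAs (SNORD genes), the class that includes the methylation guides, had 7 of 14 genes called lower in clean air and 4 in formaldehyde. Their median log2FC was -2.79 and -2.24. Small Cajal body RNAs (SCARNA genes), relatives of both snoRNA classes with a median length of 270 nt, had 8 of 13 called lower in each treatment and medians of -2.11 and -1.77. Of 29 genes that the annotation types as snRNA, RN7SK among them, 20 and 15 were called lower, with medians of -3.24 and -2.61. Some of these are copies with the same mean input count and ratios, such as RNU1-1, RNU1-3 and RNU1-28P, and are not separate measurements. Another 40 genes that were no longer than 249 nt and belonged to none of these classes had medians of -1.27 and -1.01, with 4 and 2 called lower. The low ratio was thus shared with other short genes, and the part of RNA length in it was not tested.

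**Figure D3:**
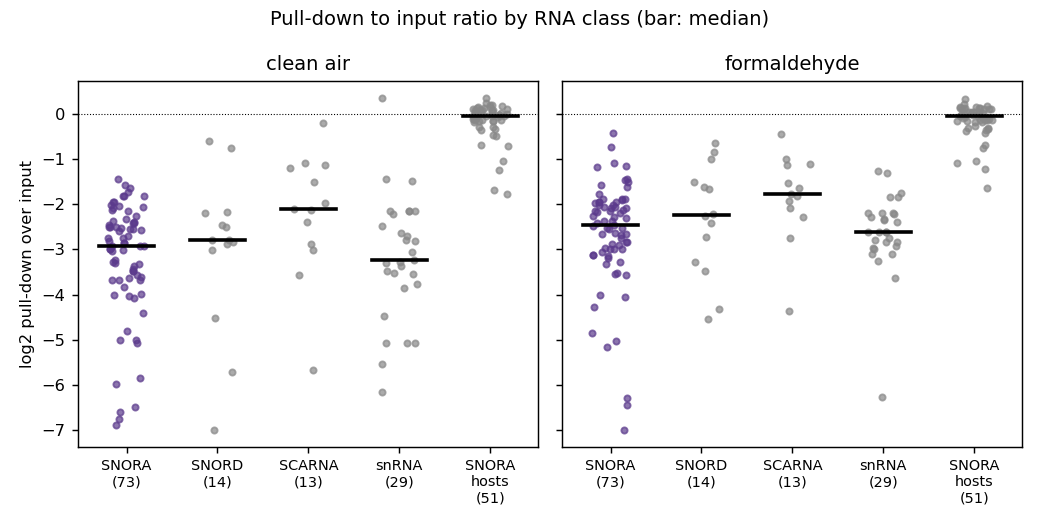
log2 ratio of pull-down to input in clean air (left) and formaldehyde (right) for SNORA, SNORD, SCARNA and snRNA genes and for the host genes of the SNORA genes, with 1 point per gene, the number of genes in brackets and a bar at the median. The 4 classes of small RNA have medians between -3.24 and -1.77, while the hosts have a median of -0.06 in both treatments.

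Of the messages for the H/ACA particle proteins, NOP10 was called lower. NOP10, whose average annotated length in the files was 552 nt, had 60.6 and 63.0 CPM in CA_IN and 20.5 and 26.5 CPM in CA_IP, a log2FC of -1.39 (SE 0.13, edgeR adjusted p = 0.000512). In formaldehyde NOP10 had 64.1 and 59.2 CPM in input and 25.3 and 26.7 CPM after pull-down, a log2FC of -1.24 (SE 0.13, edgeR adjusted p = 0.00129). DKC1, NHP2 and GAR1 had clean air log2FC of 0.16, 0.09 and -0.14 and none was called. None of the 7 assembly factors (NAF1, SHQ1, RUVBL1, RUVBL2, NUFIP1, PIH1D1 and RPAP3) and none of the 4 enzymes of 3′ end maturation (PARN, TENT4B, EXOSC10 and DIS3) was called in either treatment, with log2FC between -0.13 and 0.44. The telomerase RNA TERC, which carries an H/ACA domain on a 541-nt RNA, had a log2FC of -0.55 (SE 0.25) in clean air and -0.96 (SE 0.26) in formaldehyde and was not called.

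The third comparison asked whether formaldehyde changed the members in input RNA. No member was called: edgeR gave 0 of 73 at an adjusted p under 0.05 and 3 at an unadjusted p under 0.05, and DESeq2 also called 0 (0 at an unadjusted p under 0.05 on 8 libraries and 3 on 4 libraries). Over all genes 0.0047% were called and 3.38% had an unadjusted p under 0.05. The smallest adjusted p among the members was 0.968. Most members lay below 0 without passing the test, with 59 of 73 on that side and a median log2FC of -0.34, beside a median of 0.02 over all genes. In 32 members both FA_IN values lay below both CA_IN values, against 15.9% of all genes. In 2 members both lay above, a direction for which the share of all genes is not given. No member had a log2FC beyond 2 in either direction.

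By length, the 66 members under 160 nt had a median log2FC of -0.37 and the 7 above 170 nt one of 0.00. SNORA73A, with 354 and 431 CPM in CA_IN and 443 and 330 CPM in FA_IN, had a log2FC of -0.02 (SE 0.15), and SNORA73B had 0.00 (SE 0.17). In both genes the values of the groups overlapped. SNORA48 had 24.5 and 26.5 CPM in CA_IN and 22.4 and 15.7 CPM in FA_IN, a log2FC of -0.43 (SE 0.25). SNORA63 had 20.9 and 22.8 CPM in CA_IN and 16.3 and 13.4 CPM in FA_IN, a log2FC of -0.56 (SE 0.30), with no overlap between the groups and no call.

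The most negative values among members with a mean input count of at least 20 belonged to SNORA18, SNORA17B, SNORA16A and SNORA80A. Some members with fewer counts lay lower, down to -1.91 for SNORA51, which had 5 and 6 counts in CA_IN and 0 and 2 counts in FA_IN. SNORA18 in the TAF1D gene had 30.1 and 29.8 counts in CA_IN and 10.3 and 12.4 counts in FA_IN, a log2FC of -0.99 (SE 0.38). The longer of the overlapping SNORA17B genes, of 136 nt, had 2.00 and 1.45 CPM in CA_IN and 0.996 and 0.781 CPM in FA_IN, a log2FC of -0.97 (SE 0.31), the smallest unadjusted p of all members (0.0116 by edgeR). The SNORA17B genes of 136 and 130 nt overlap on the same strand and share reads, so their separate values are uncertain, and the 130-nt gene had a log2FC of -0.48 (SE 0.36). SNORA16A had -0.82 (SE 0.53) and SNORA80A -0.74 (SE 0.36). The most positive values under the same count limit were those of SNORA12 at 0.23 (SE 0.51), SNORA50C at 0.10 (SE 0.29), SNORA23 at 0.02 (SE 0.21) and SNORA74B at 0.01 (SE 0.34), all smaller than their standard errors.

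The effective length moved with this result. For SNORA48 it was 1.69 and 1.49 nt in CA_IN and 1.27 and 1.05 nt in FA_IN, and for the 206-nt SNORA73A 24.1 and 23.4 nt against 21.7 and 19.8 nt. With effective lengths added as offsets to the fit, the median log2FC of the members in input was -0.02, with 37 of 73 below 0 and 0 called. With these offsets the medians were -0.04 under 160 nt and 0.16 above 170 nt. Effective lengths under 1 nt were set to 1 nt, and the shortest members moved little, such as SNORA54 from -0.46 to -0.48. SNORA71B, which has 2 transcripts, moved away from 0, from -0.34 to -1.32. Replicates of FA_IN also stood apart: the median log2 difference between them over the 47 well-counted members was 0.38. A constant was added to each CPM before the log was taken, which draws such differences towards 0. The value is thus not on the same scale as the log2FC of the comparison. The median log2FC was -0.13 without FA_IN replicate 2, -0.22 without CA_IN replicate 2 and -0.56 without FA_IN replicate 1.

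**Figure D4:**
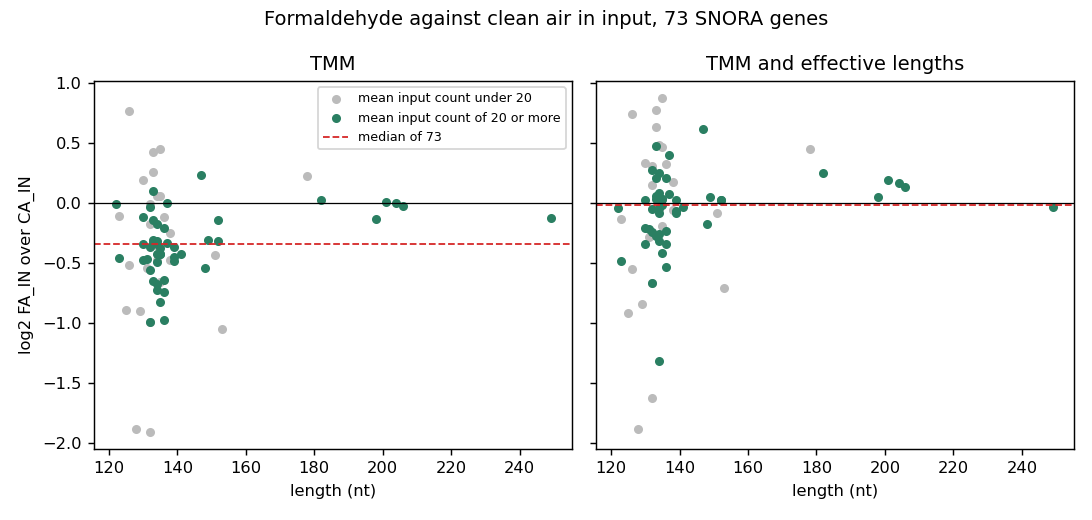
log2 ratio of FA_IN to CA_IN for the 73 SNORA genes against annotated length in nt, with the TMM normalization (left) and with effective lengths added as offsets (right), grey points for a mean input count under 20 and a dashed line at the median. The median lies at -0.34 on the left and at -0.02 on the right, and the members above 170 nt lie near 0 on the left.

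The hosts had a median log2FC of 0.07 in input, with 13 of 51 below 0 and 0 called. SNORD genes had a median of -0.20, SCARNA genes 0.03, snRNA genes -0.30, and the 40 other short genes -0.44, and none of these genes was called. DKC1, NOP10, NHP2 and GAR1 lay between -0.0039 and 0.15, and TERC had a log2FC of 0.39 (SE 0.25).

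The last comparison tested whether the pull-down to input ratio differed between treatments. No member and no gene was called (edgeR interaction contrast, 0% of 21298 genes), and DESeq2 called 0 members on 8 libraries (1 at an unadjusted p under 0.05). By edgeR 3 members had an unadjusted p under 0.05, against 1.46% of all genes. The median difference of the members, formaldehyde minus clean air, was 0.54 on the log2 scale, beside -0.02 over all genes. Of the 73 members, 57 were above 0. For the 31 members that passed the count limit in pull-down libraries the median was 0.35, with 5 below 0. With effective lengths as offsets it was 0.38 over all members, with 22 below 0. The difference contains the input values of both treatments, so it is not independent of the input change (median log2FC -0.34). Among the 10 members with the highest input level it ran from -0.09 to 0.97. It was 0.25 (SE 0.21) for SNORA73A, 0.06 (SE 0.24) for SNORA73B, 0.20 (SE 0.32) for SNORA74A, 0.19 (SE 0.39) for SNORA48, 0.04 (SE 0.45) for SNORA71D and -0.09 (SE 0.55) for SNORA71A. It lay above the members' median for SNORA70 at 0.58 (SE 0.36), SNORA57 at 0.64 (SE 0.45), SNORA7A at 0.92 (SE 0.54) and SNORA63 at 0.97 (SE 0.53), all 4 without a call. The 3 members with an unadjusted p under 0.05, SNORA10 at 3.44 (SE 1.11), SNORA80B at 2.06 (SE 0.83) and SNORA54 at 1.43 (SE 0.59), were chosen after their values were seen. SNORA10 rests on 1 count in CA_IP, against 10 in FA_IP. SNORA54 had 0.296 and 0.337 CPM in CA_IP and 0.332 and 0.864 CPM in FA_IP, so that the pull-down values overlapped and FA_IP replicate 2 stood highest. The median difference was 0.17 without FA_IP replicate 2 and 0.36 without FA_IN replicate 2.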

How the data were processed

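RNA of BEAS-2B cells was sequenced before and after immunoprecipitation with an anti-8-oxoG antibody in 8 libraries, 2 for each combination of treatment and fraction named in the sample records. The authors trimmed the paired reads with cutadapt, aligned them with STAR 2.6.0a to GRCh38 and deposited, for each library, the RSEM 1.2.25 expected count, length, effective length and TPM of every Ensembl transcript. The deposited expected counts were not normalized, and a read shared by several transcripts is divided among them. The deposited TPM divides by effective length and was used only as an alternative scale for levels. The authors' 3 deposited tables of DESeq2 comparisons (log2 fold changes and p-values) were not used.

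Expected counts were summed by gene and rounded. Genes that reached a rounded count of 5 in 2 or more libraries went into the test, made with edgeR 4.0.16 (TMM, quasi-likelihood, 4 group means over 8 libraries) and limma 3.58.1 in R 4.3.3, with Benjamini-Hochberg adjustment over all genes and a limit of 0.05. DESeq2 1.42.0, other scalings and filters, replicate blocks and each library left out were alternatives. Standard errors (SE) were derived from the quasi-likelihood test, as the absolute log2FC divided by the square root of the F statistic. The fit was tested on simulated counts. Annotation and sequences came from GENCODE 44, and tables were made with Python 3.11.15.

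The members and lists were chosen with earlier results of these data known. The named members are the 10 with the highest input level per length, the 8 lowest and 6 highest by mean log2 ratio and the 4 lowest and 4 highest by input change among those with a mean input count of at least 20, and 6 genes by role. Input and pull-down of the same treatment and the same number in the file name come from 1 RNA pool, and the deviations of the paired libraries from their group means had correlations of 0.29 in clean air and 0.16 in formaldehyde. Bounds use 3 counts over a group, and intervals are exact at 95%. Since each group holds 2 libraries, p-values rest on a spread shared by all groups. The values of 1 host gene are not reported here.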

Additional observations from a re-analysis of the deposited data

How the results depend on the processing

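Under every alternative run no member was called higher in the pull-down, and the named members kept the sign of their ratio in both treatments. The share of all genes called lower is given for the fit reported only, so call counts under the alternatives have no background beside them. The number of members called lower did depend on the fit. In formaldehyde it was 50 with no filter on low counts, 50 with a replicate block for the RNA pool and 42 with a replicate block for the number in the file name, against 27 in the fit reported, and in clean air it was 56 with either block. With 1 library left out it ranged from 20 to 40 in clean air and from 12 to 25 in formaldehyde. The median log2FC then ranged from -3.42 to -2.82 in clean air and from -2.83 to -2.26 in formaldehyde. In input it ranged from -0.56 to -0.13, and with effective lengths as offsets, an alternative chosen after seeing the data, it was -0.017. The median difference between treatments ranged from 0.17 to 0.76. With library size alone the median log2FC over all genes moved to 0.16 in clean air and 0.17 in formaldehyde, and that of the members was -2.78 and -2.30. No member was called in input or in the difference between treatments under any alternative.

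Among the named members, the sign of small input changes turned. SNORA23 was at -0.016 with library size only, and with 1 library left out it ranged from -0.15 without FA_IN replicate 1 to 0.20 without CA_IN replicate 2. SNORA74B was at -0.030 with library size only and -0.011 with no filter, and with 1 library left out it ranged from -0.20 without FA_IN replicate 1 to 0.21 without FA_IN replicate 2. SNORA12 ranged from -0.25 without FA_IN replicate 1 to 0.76 without CA_IN replicate 1, and SNORA50C from -0.089 without FA_IN replicate 1 to 0.30 without FA_IN replicate 2. The cause was not tested. The depth limits the ratios of the 26 members with a mean input count under 20, for which pull-down libraries held few or no reads.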
